A study of Mus musculus with 37 samples.

Results

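The cytoplasmic ribosomal protein genes were examined in mouse oocytes, early embryos and embryonic day 6.5 lineages with and without maternal BAP1. Members were the genes listed in both deposited tables whose symbol is Rpl, Rps or Rplp, a number and, at most, a closing a, l or x, so that pseudogene suffixes were left out. The rule found 82 of 55401 genes, 51 of the large and 31 of the small subunit. Of these, 7 have symbols ending in l, most of them paralogs of another member (Rpl3l, Rpl6l, Rpl10l, Rpl32l, Rpl39l, Rps4l and Rps27l). GENCODE M21 (GRCm38, the mm10 assembly) lists 79 of the 82 as protein-coding and Rpl6l, Rpl32l and Rps4l as processed pseudogenes. The members lie on 19 chromosomes. The symbol rule misses some ribosomal proteins, such as Rpsa, Fau and Rack1, which are given below as a list of their own.

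The series holds 37 RNA-seq libraries, 26 from total RNA and 11 from poly(A) RNA, and asks how loss of BAP1, a ubiquitin hydrolase that acts on Polycomb-modified histones, changes the transcriptome. Control females were Bap1 flox/flox, and knockout females were Gdf9-iCre, Bap1 flox/flox, in which iCre under the oocyte promoter of Gdf9 deletes Bap1 during oocyte growth. All females were therefore homozygous for the floxed allele, which iCre deletes in knockout oocytes. The early stages were the fully grown oocyte, written FGO, the MII egg, the late 1-cell embryo, written L1C, and the 2-cell embryo taken early (E2C) or late (L2C). E2C was covered by 3 libraries per genotype and each of the others by 2 control and 3 knockout libraries. The early embryos came from crosses with B6 males and the day 6.5 embryos from crosses with PWK males, so that knockout embryos lacked the maternal product and kept a paternal wild-type allele. Epiblast (EPI) and visceral endoderm (VE) had 2 control and 2 knockout libraries each, whereas for extraembryonic ectoderm (EXE) a single control library stands beside 2 knockout libraries. The labels do not give the age of the females, the number of cells in a library or whether libraries of a group came from separate animals, so p-values measure the spread between these libraries, which may be technical.

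Ribosomal proteins are made in near-equal numbers and join ribosomal RNA in the nucleolus to form the large and the small subunit. Their mRNAs are short and abundant, and most begin with a C followed by a run of pyrimidines, the 5' terminal oligopyrimidine (TOP) motif, through which LARP1 and mTOR control their translation and stability. A growing oocyte stores ribosomes and mRNA, much of the stored mRNA is removed during maturation and after fertilization, and new transcription begins in earnest at the 2-cell stage. The 2 kinds of RNA library are described apart, since total RNA and poly(A) FPKM (fragments scaled by gene length and library size) are not on the same scale.

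The sum of FPKM over all genes ran from 300668 to 430784 per total RNA library and from 593705 to 704522 per poly(A) library, and the number of reads behind a value is not known. Gm23935, a short non-coding model, held 5.98% to 23.1% of the sum in total RNA and was left out of the shares below. Bap1 was between 16.3 and 29.9 FPKM in the control and between 3.76 and 11.7 FPKM in the knockout total RNA libraries, with no overlap within a stage. Oocyte markers (5 of 5 at 1 FPKM or more) summed to 2505 to 2841 FPKM in FGO, visceral endoderm markers to at least 8074 FPKM in VE and at most 18.6 FPKM in EPI and EXE, and extraembryonic ectoderm markers to at least 253 FPKM in EXE and at most 26.8 FPKM in EPI and VE. Epiblast markers separated the lineages less, at 889 to 1355 FPKM in EPI, 395 to 499.5 FPKM in EXE and 47.7 to 159 FPKM in VE. Granulosa and cumulus markers, of which 1 of 7 reached 1 FPKM, summed to 6.92 to 8.28 FPKM in control and 2.57 to 3.52 FPKM in knockout FGO. Only Cyp19a1 of the 7 passed the level filter, so this sum cannot be read as a level of those cells.

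The start of the transcript is shown for members whose levels are described below, because it carries the TOP motif. Each line is 30 bases of the RefSeq promoter table (GRCm38.p6), 15 before the annotated start and 15 from it, 5' to 3' on the gene's strand, with the longest run of C and T in capitals. The first 5 members have a C at the start and 4 further pyrimidines after it.
Rps6 (chr4:86857353-86857382, minus strand): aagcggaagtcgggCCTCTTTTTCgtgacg
Rplp2 (chr7:141447636-141447665, plus strand): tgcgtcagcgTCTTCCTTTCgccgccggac
Rps27 (chr3:90213634-90213663, minus strand): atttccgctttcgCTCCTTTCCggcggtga
Rps18 (chr17:33955651-33955680, minus strand): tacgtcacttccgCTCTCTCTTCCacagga
Rpl35 (chr2:39005117-39005146, minus strand): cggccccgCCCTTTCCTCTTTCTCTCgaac
Rps24 (chr14:24490663-24490692, plus strand): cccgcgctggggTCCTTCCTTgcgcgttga
Rpl4 (chr9:64173372-64173401, plus strand): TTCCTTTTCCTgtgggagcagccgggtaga
Rpl39 (chrX:37085208-37085237, minus strand): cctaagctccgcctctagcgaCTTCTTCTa
Rps27l (chr9:66946071-66946100, plus strand): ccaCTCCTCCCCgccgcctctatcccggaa
Rpl10l (chr12:66284387-66284416, minus strand): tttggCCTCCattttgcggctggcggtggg
Rpl39l (chr16:10170213-10170242, plus strand): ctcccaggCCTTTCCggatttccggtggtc

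The table held 60 members in 72 promoter entries. A C at the annotated start with 4 pyrimidines after it was found in 14 of these entries (19.4%) and in 2.51% of all 32851 entries. A run of at least 8 pyrimidines within 20 bases of the start was found in 31 entries (43.1%, against 16.05% of all). In the 300-base window, 250 before the start and 50 from it, CCGGAAG, the core bound by ETS factors, was found on either strand in 25 entries (34.7%, against 8.86%). AAGATGG, the YY1 core, was in 11 (15.3%, against 6.34%), CACGTG in 8 (11.1%, against 7.15%) and TATAAA in 7 (9.7%, against 13.62%). CCGGAAG and AAGATGG can overlap by the letters AAG, and a match is a description of the sequence only. In Rps24, outside the first count, a run of pyrimidines spans the annotated start.

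Near-identical copies limit how far single members can be measured. The share of a member's 50-base exonic words that also occur in other annotated genes had a median of 20.4% and exceeded 50% in 6 members, with Rpl36 highest at 81.1%, followed by Rpl6l (76.4%), Rplp1 (60.0%), Rpl19 (57.4%), Rpl24 (51.8%) and Rpl23a (50.1%), so the values of these 6 are uncertain. Exonic length ran from 383 to 6270 bases. On their own strand, 28 members hold 53 annotated small nucleolar RNAs within their bounds.

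Members spanned a wide range within a library. In total RNA the highest means over the 26 libraries were those of Rps24 (144 FPKM), Rpl17 (133 FPKM) and Rpl26 (111 FPKM), and the lowest those of Rpl9 (3.15 FPKM), Rpl6l (2.14 FPKM) and Rpl3l (0.197 FPKM). In poly(A) RNA Rps14 (3432 FPKM) and Rpl38 (2431 FPKM) were among the members with the highest means over the 11 libraries, and the lowest means were those of Rpl10l (13.4 FPKM), Rpl32l (3.54 FPKM) and Rpl3l (0.229 FPKM). Only Rpl3l was among the lowest in both kinds of library, and it is the member that missed the level filter of the poly(A) tests. Rpl9, an ordinary subunit protein, was between 0.0912 and 24.9 FPKM in total RNA and between 273 and 1746 FPKM in poly(A) RNA.

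As a share of all summed FPKM, the members fell from the oocyte to the early 2-cell embryo and rose again in the late 2-cell embryo. The share was 1.86% and 1.78% in control FGO, 1.09% and 1.17% in control MII, 0.722% and 0.694% in control L1C, 0.421%, 0.408% and 0.419% in control E2C, and 1.41% and 1.39% in control L2C. No 2 neighbouring stages overlapped. The mean share in control E2C was 4.38-fold lower than in control FGO, and that in control L2C was 3.36-fold higher than in control E2C. In the knockout the share was 1.90% in each of the 3 FGO libraries, 1.08%, 1.19% and 1.15% in MII, 1.00%, 0.941% and 0.915% in L1C, 0.360%, 0.408% and 0.358% in E2C, and 0.846%, 0.784% and 0.787% in L2C. Knockout shares were above every control in FGO, by a small margin, and in L1C, overlapped the controls in MII and E2C and were below every control in L2C, where the mean ratio of knockout to control was 0.577. These are bulk libraries and relative values, in which fewer cells of a type and less RNA per cell cannot be told apart.

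**Figure D1:**
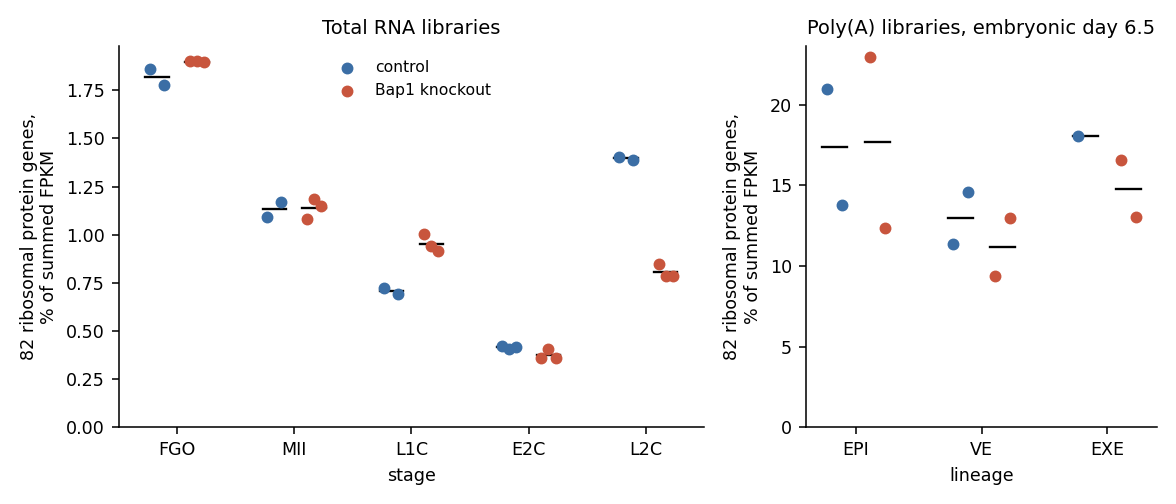
Share of the summed FPKM of a library held by the 82 ribosomal protein genes, in percent, for each library of the total RNA stages (left) and poly(A) lineages (right, on another axis). Points are libraries, bars are means, blue is control and red is Bap1 knockout; in L2C the controls sit at 1.41% and 1.39% and the knockouts between 0.784% and 0.846%.

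Genes were compared on the log2(FPKM + 1) scale with limma, with Benjamini-Hochberg adjustment over all 15184 genes tested in total RNA, and called at an adjusted p under 0.05. Beside each count of members stands the share of all tested genes that was called the same way. All 82 members were tested in total RNA, Rpl3l included, which was listed at 0 in every FGO, MII and L1C library.

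From FGO to MII in controls, 44 of 82 members fell, where 4.1% of all genes did, and 2 rose, where 1.3% of all genes did (5.39% in either direction). Without stage weights 29 members fell and none rose. The median change of the members was -0.59 and that of all genes 0. Rps27, a zinc-finger protein of the small subunit, was 33.1 and 39.7 FPKM in FGO and 3.32 and 5.55 FPKM in MII (log2 change -2.81 ± 0.26 (SE), limma adjusted p = 3.75e-07). Rps19, which is needed for small subunit maturation, was 27.6 and 22.9 FPKM in FGO and 2.21 and 4.60 FPKM in MII (log2 change -2.63 ± 0.18, limma adjusted p = 4.99e-09). For both genes every egg library was far below every oocyte library.

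Rpl4 and Rps24 went the other way. Rpl4 was 104 and 96.7 FPKM in control FGO and 135 and 124 FPKM in control MII (log2 change 0.37 ± 0.08, limma adjusted p = 0.0051). Rps24 was 160 and 169 FPKM in FGO and 206 and 212 FPKM in MII (log2 change 0.35 ± 0.09, limma adjusted p = 0.0306). The oocyte and egg libraries did not overlap for either gene. Both calls were lost when single libraries were left out, with a limma adjusted p of 0.0994 for Rpl4 without control FGO replicate 2 and 0.0989 without control MII replicate 1, and between 0.106 and 0.224 for Rps24 without any of the 4 control libraries of these stages. In the knockout, 54 members fell and 1 rose between the same stages, where 7.35% of all genes fell and 6.49% rose, with a member median of -0.81.

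The 14 members with a C and 4 pyrimidines at the annotated start had a median change of -1.12 from FGO to MII, and 10 of the 14 fell. The 46 members with a promoter entry but without that start had a median of -0.52, and 22 of the 46 fell. From control MII to L1C the medians were -1.09 and -0.77, and 9 of the 14 and 38 of the 46 fell. The difference between the members with and without this start was not tested at either step. The match depends on the annotated start, so members without it cannot be taken to lack a TOP motif. Rpl32l, listed as a processed pseudogene, is among the 14.

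From control MII to L1C, 66 members fell, where 15.8% of all genes did, and 1 rose, where 9.6% of all genes did. The median change was -0.88. Rplp1, a protein of the ribosomal stalk that recruits translation factors, was 32.7 and 39.7 FPKM in MII and 8.84 and 7.38 FPKM in L1C (log2 change -2.03 ± 0.22, limma adjusted p = 8.58e-07). Rpl39, a small protein at the exit tunnel, was 21.7 and 27.0 FPKM in MII and 4.31 and 6.19 FPKM in L1C (log2 change -2.03 ± 0.23, limma adjusted p = 1.8e-06). Rpl41, the shortest ribosomal protein, was 54.7 and 56.3 FPKM in MII and 11.2 and 16.2 FPKM in L1C (log2 change -1.96 ± 0.17, limma adjusted p = 3.95e-08). Embryo libraries of these genes were all far below the eggs. With libraries centred on their medians, 52 members fell, and the split of all genes turned to 22.5% higher and 10.2% lower.

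The member that rose at fertilization was Rps27l, the paralog of Rps27 and a known p53 target. It was 15.6 and 17.5 FPKM in control MII and 24.4 and 20.6 FPKM in control L1C, without overlap (log2 change 0.42 ± 0.14, limma adjusted p = 0.0317). The adjusted p from limma was 0.179 without control MII replicate 1 and 0.277 without control L1C replicate 1. In the knockout, 35 members fell from MII to L1C and none rose, where 11% of all genes fell and 5.36% rose (16.4% in either direction).

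From control L1C to E2C the members split. Of the 82, 33 fell (40.2%), where 29.1% of all genes did, and 17 rose (20.7%), where 18.1% of all genes did. With median centring, 33 members fell and 20 rose, and the split of all genes was 24.2% higher and 23.9% lower. Among those that rose, Rplp1 went from 8.84 and 7.38 FPKM to 37.6, 25.2 and 30.5 FPKM (log2 change 1.80 ± 0.31, limma adjusted p = 5.7e-05). Rps19 rose by 1.75 ± 0.25 on the log2 scale (limma adjusted p = 5.92e-06). Rplp1 and Rps19 had each fallen deeply at an earlier step, and the values of Rplp1 are uncertain for its shared sequence.

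Among those that fell from control L1C to E2C, Rpl19, a large subunit protein, went from 86.2 and 88.5 FPKM to 16.9, 18.3 and 13.4 FPKM (log2 change -2.37 ± 0.16, limma adjusted p = 2.37e-10). Rps7, which also binds MDM2, went from 77.1 and 76.5 FPKM to 18.7, 12.8 and 20.1 FPKM (log2 change -2.12 ± 0.17, limma adjusted p = 3.03e-09). Rpl35, whose annotated start lies within a run of 18 pyrimidines, fell by 2.06 ± 0.23 on the log2 scale (limma adjusted p = 1.99e-07). The controls of both stages were far apart for these genes. Large subunit members had a median change of -0.43 (23 fell and 7 rose of 51), and small subunit members one of 0.08 (10 fell and 10 rose of 31). Members whose share of words found in other genes was above the median changed by a median of -0.78 (23 fell and 6 rose of 41). The other 41 had a median change of 0 (10 fell and 11 rose). These sets were closer at other steps. From control FGO to MII the large and small subunit medians were -0.61 and -0.56, and the shared-word medians -0.57 and -0.61. From control E2C to L2C they were 1.78 and 2.00, and 1.84 and 1.95. None of these differences was tested, and the values of Rpl19 are uncertain for its shared sequence. In the knockout, 58 members fell and 4 rose from L1C to E2C, where 26.5% of all genes fell and 15.2% rose, with a member median of -1.13.

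From control E2C to L2C, 74 of 82 members rose and none fell, where 29.2% of all genes rose and 22.5% fell. The median change of the members was 1.86 and that of all genes 0.02. With median centring 70 members rose and 1 fell, and the split of all genes was 23.5% higher and 32.1% lower, the median of all genes moving to -0.23. The 8 members not called were Rpl15, Rpl17, Rpl18, Rpl32l, Rpl39l, Rps15a, Rps24 and Rps27l.

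Rpl10l, an autosomal retrocopy of the X-linked Rpl10, had the steepest rise. It was 3.51, 0.884 and 1.61 FPKM in control E2C and 56.0 and 68.2 FPKM in control L2C (log2 change 4.48 ± 0.39, limma adjusted p = 5.81e-09). Rps27 was 1.68, 0.597 and 0.0725 FPKM in E2C and 32.2 and 32.6 FPKM in L2C (log2 change 4.33 ± 0.45, limma adjusted p = 5.95e-08). Rplp1 was 37.6, 25.2 and 30.5 FPKM in E2C and 292 and 279 FPKM in L2C (log2 change 3.18 ± 0.37, limma adjusted p = 3.92e-07). In all 3 genes the lowest late library was several times the highest early one, though the values of Rplp1 are uncertain for its shared sequence. In the knockout, 59 members rose and 4 fell, where 27.4% of all genes rose and 18.1% fell, with a member median of 1.34.

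Over the control course, 46 members had their lowest mean in E2C and 31 in L1C, while 43 had their highest mean in FGO and 32 in L2C. In controls 33 members were at least as high in L2C as in FGO, against 9 in the knockout. The order of the members by level was kept in part across stages, with a Spearman rho over the 82 genes of 0.85 between control FGO and MII, 0.93 between MII and L1C and 0.75 between L1C and E2C. These correlations are across genes, which share length and annotation between stages, and describe the libraries only.

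**Figure D2:**
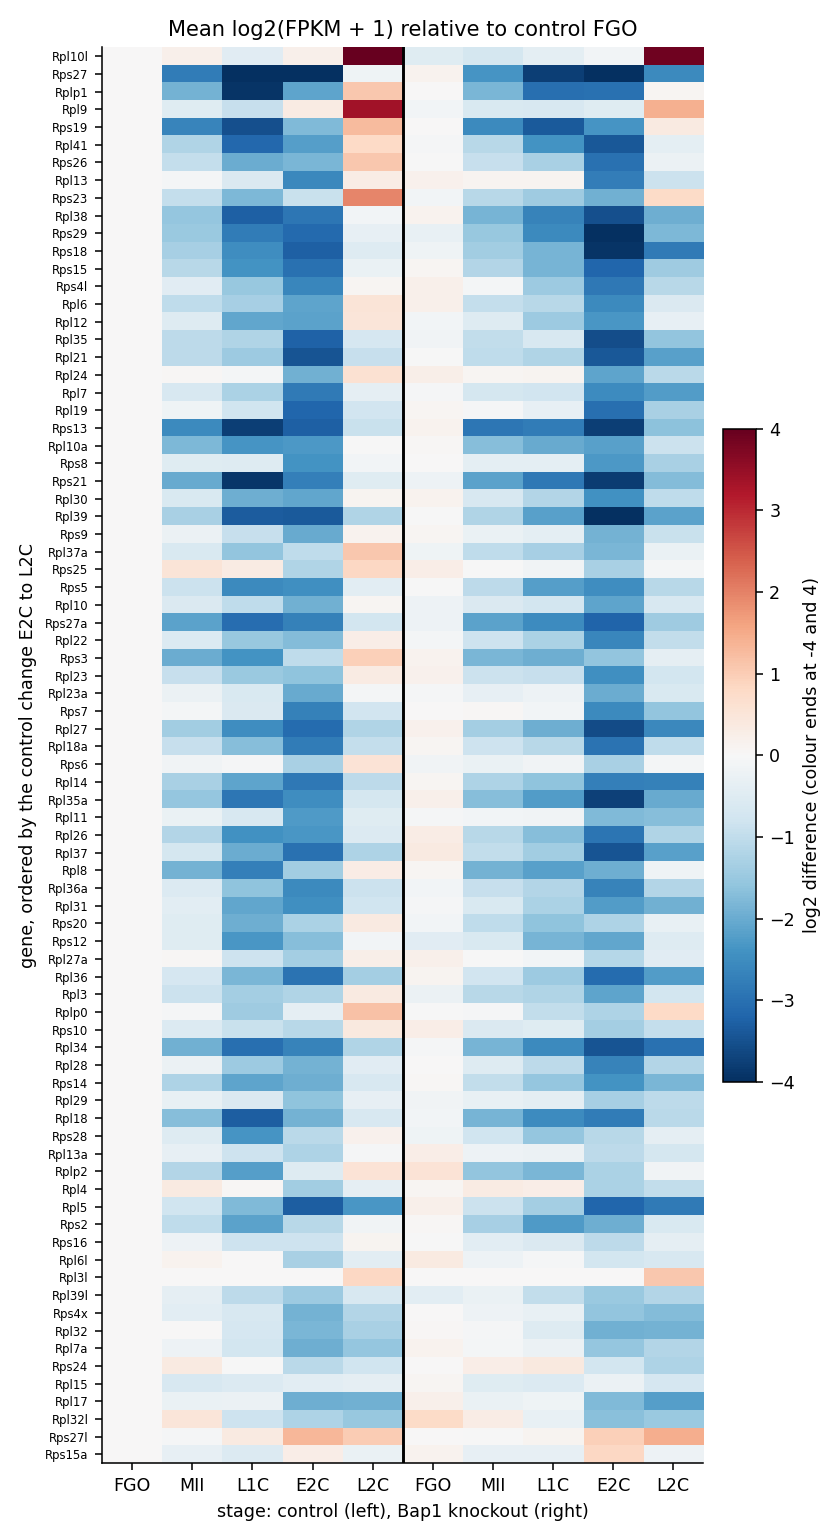
Mean log2(FPKM + 1) of ribosomal protein genes relative to control FGO, by stage, with control columns on the left and knockout columns on the right. Blue is lower and red higher than in control FGO; genes are ordered by their control change from E2C to L2C, from Rpl10l (4.48) at the top to Rps15a (-0.54) at the bottom.

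In oocytes and eggs the knockout changed few members. In FGO, 1 of 82 members was higher and 1 lower, where 3.91% of all genes were higher and 9.97% lower, and the member median was 0.03. Rplp2, an acidic protein of the stalk, was 89.0 and 94.2 FPKM in control and 167, 105 and 135 FPKM in knockout FGO (log2 difference 0.54 ± 0.13, limma adjusted p = 0.00621). Rps12, a small subunit protein, was 53.4 and 58.6 FPKM in control and 41.9, 39.8 and 40.1 FPKM in knockout FGO (log2 difference -0.45 ± 0.10, limma adjusted p = 0.00265). Groups did not overlap for either gene. Without stage weights 1 member was called, as higher, and with FGO fitted alone 1, as lower. The limma adjusted p was 0.0761 for Rplp2 without control FGO replicate 1 and 0.0715 for Rps12 without control FGO replicate 2, and median centring gave 6 members higher and 1 lower beside 7.59% and 6.8% of all genes.

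In MII eggs no member was higher and 2 were lower, where 6.57% of all genes were higher and 10.2% lower. Rplp2, higher in knockout oocytes, was 36.6 and 43.0 FPKM in control and 30.2, 33.1 and 26.6 FPKM in knockout eggs (log2 difference -0.40 ± 0.11, limma adjusted p = 0.0192), and every knockout library was below every control. Rpl10l was 1.90 and 1.74 FPKM in control and 0.776, 0.536 and 0.268 FPKM in knockout eggs (log2 difference -0.90 ± 0.20, limma adjusted p = 0.00258). Rplp2 lost its call without control MII replicate 2 (limma adjusted p = 0.277) and without knockout MII replicate 3 (0.051), and the count of members lower was 4 without the latter. Without stage weights no member was called, and with a replicate block 4 were lower. Median centring gave 2 members higher and 2 lower beside 14.4% and 7.34% of all genes.

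In late 1-cell embryos 39 of 82 members were higher in the knockout and none lower, where 7.6% of all genes were higher and 10% lower. The member median was 0.44 and that of all genes 0.01, and in 55 members every knockout library was above every control, against 22% of all genes. Members of both subunits were among them, 24 of 51 large and 15 of 31 small. Rpl39 was 4.31 and 6.19 FPKM in control and 18.8, 9.17 and 11.8 FPKM in knockout L1C (log2 difference 1.15 ± 0.23, limma adjusted p = 0.00106). Rps21, a small subunit protein, was 5.64 and 5.26 FPKM in control and 16.9, 10.2 and 10.5 FPKM in knockout L1C (log2 difference 1.04 ± 0.21, limma adjusted p = 0.00151). Rps13, another, was 1.39 and 3.04 FPKM in control and 5.66, 3.35 and 6.35 FPKM in knockout L1C (log2 difference 0.94 ± 0.26, limma adjusted p = 0.0132). The lowest knockout library lay above both controls in each, by a small margin in Rps13.

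The oocyte markers (5 of 5 at 1 FPKM or more, none at 0) summed to 1314 to 1342 FPKM in control and 1333 to 1860 FPKM in knockout L1C. Granulosa and cumulus markers (1 of 7 at 1 FPKM or more, with Amh, Inha and Hsd3b1 at 0) summed to 4.55 to 6.18 FPKM in control and 1.58 to 2.19 FPKM in knockout L1C. Only Cyp19a1 of this list was tested. It was called lower in knockout FGO (-1.33), MII (-1.22), L1C (-1.21) and E2C (-1.05 on the log2 scale). The sum therefore cannot be read as a level of granulosa or cumulus cells. The part of either list in the result was not tested. Controls here are 2 libraries: 25 members were higher without control L1C replicate 1 and 18 without control L1C replicate 2, and the limma adjusted p of Rps13 was 0.29 without control L1C replicate 1 and 0.0516 without knockout L1C replicate 3. Without stage weights 17 members were higher. In simulated data the fit without weights made 0 false calls of 145 in L1C, and the weighted fit 9 of 169. Median centring gave 46 members higher beside 10% of all genes higher and 8.77% lower.

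In early 2-cell embryos no member was higher in the knockout and 11 were lower (13.4%), where 6.2% of all genes were higher and 7.28% lower. Among them were Rps29, Rpl35a, Rps26, Rpl41, Rps23, Rpl3, Rplp0, Rpl23, Rplp2 and Rpl26. The member median was -0.24. Rps29, a zinc-finger protein of the small subunit, was 6.75, 2.03 and 9.68 FPKM in control and 0.342, 1.54 and 0.126 FPKM in knockout E2C (log2 difference -2.01 ± 0.47, limma adjusted p = 0.00593). Rps26, which contacts the mRNA upstream of the start codon, was 23.1, 18.7 and 22.1 FPKM in control and 9.26, 7.5 and 9.82 FPKM in knockout E2C (log2 difference -1.18 ± 0.19, limma adjusted p = 0.000278). Rpl41 was 32.7, 21.9 and 27.5 FPKM in control and 15.6, 6.70 and 13.9 FPKM in knockout E2C (log2 difference -1.18 ± 0.28, limma adjusted p = 0.00795). Every control library was above every knockout library for these 3 genes.

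E2C was the stage with the widest spread among libraries, and the count of members moved with the processing there. It was 5 without control E2C replicate 1, 7 without control E2C replicate 2, 5 without knockout E2C replicate 2, and 7 without the filter on low values, while Rpl41 had a limma adjusted p of 0.0562 without control E2C replicate 1 and 0.0612 without knockout E2C replicate 2. The 2-cell markers (3 of 3 at 1 FPKM or more, none at 0) summed to 117 to 159.7 FPKM in control and 47.3 to 94.1 FPKM in knockout E2C, and their part in the result was not tested. When stages were not weighted by their spread the count was 32 (29 lower). In simulated data that fit made 132 false calls of 281 in E2C, and the weighted fit 14 of 131. The simulated data were drawn with a spread for each stage, which the weights model, so they cannot decide between these counts. Median centring gave 1 member higher and 11 lower beside 9.13% and 5.92% of all genes.

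In late 2-cell embryos 57 of 82 members were lower in the knockout and none higher, where 17.2% of all genes were lower and 17% higher. The member median was -0.83 and that of all genes 0.03. In 69 members every knockout library was below every control, against 27.7% of all genes, and 77 had a lower mean. Both subunits took part, with 35 of 51 large and 22 of 31 small subunit members lower.

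Rps27 was 32.2 and 32.6 FPKM in control and 7.55, 5.16 and 3.93 FPKM in knockout L2C (log2 difference -2.39 ± 0.41, limma adjusted p = 0.000143). Rps18, which lies at the head of the small subunit, was 32.1 and 33.1 FPKM in control and 3.84, 6.01 and 8.24 FPKM in knockout L2C (log2 difference -2.31 ± 0.27, limma adjusted p = 2e-06). The 2 control libraries were nearly equal for both genes and several times higher than any knockout library. The starts of Rps27 and Rps18 are shown above. The 14 members with a C and 4 pyrimidines at the annotated start had a median of -1.09 (11 lower). Members with a promoter entry but without that start had one of -0.82 (31 of 46 lower), and may still have a TOP motif. In knockout L1C the medians of these 2 sets were alike, at 0.46 and 0.45 (6 of 14 and 23 of 46 higher). From control E2C to L2C they were 1.80 and 1.90 (11 of 14 and 42 of 46 rose). None of these differences was tested.

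The members with a higher mean in knockout L2C were Rps27l (0.42), Rpl7a (0.37), Rpl3l (0.26), Rps15a (0.07) and Rpl32l (0.05 on the log2 scale), and no call was made for any of them. Oocyte markers (5 of 5 at 1 FPKM or more, none at 0) summed to 445 to 468 FPKM in control and 731 to 857 FPKM in knockout L2C, and 2-cell markers (3 of 3, none at 0) to 58.9 to 63.9 FPKM in control and 165 to 213 FPKM in knockout L2C. Their part in the result was not tested. Without the filter on low values 23 members were called lower, and leaving out single libraries gave between 38 and 55.

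**Figure D3:**
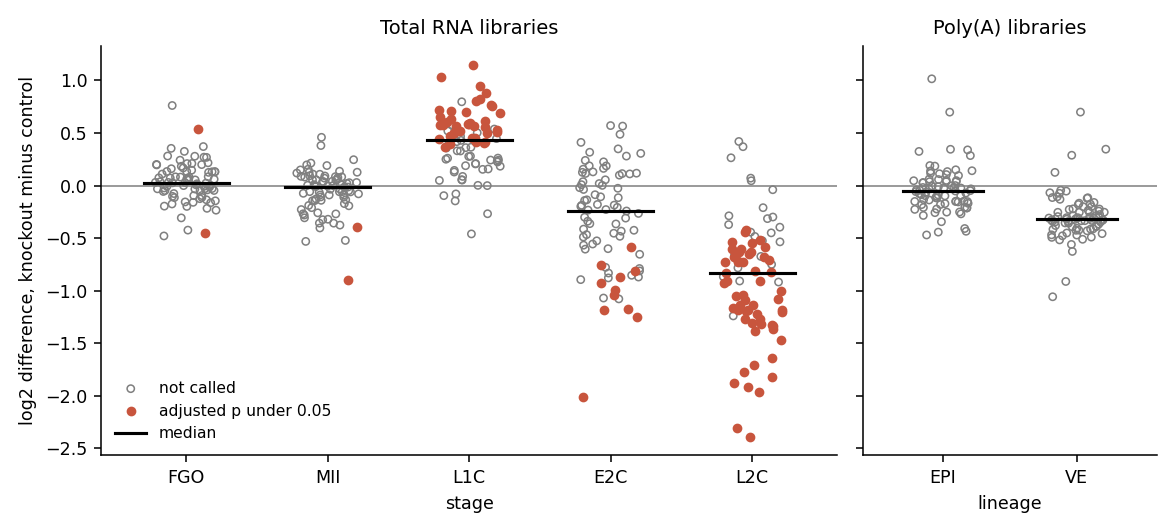
Difference of knockout and control on the log2(FPKM + 1) scale for each tested ribosomal protein gene (1 point per gene, spread sideways at random), by stage in total RNA (82 genes) and by lineage in poly(A) RNA (81 genes). Filled red points have an adjusted p under 0.05 and bars are medians; the median was 0.44 in L1C, -0.24 in E2C and -0.83 in L2C.

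The knockout difference was also compared between late and early 2-cell embryos, which span the onset of major transcription. In 18 of 82 members the difference was more negative in L2C than in E2C, where 9.37% of all genes moved that way, and in none was it more positive, where 9.55% of all genes were. The member median was -0.59. Rpl7, a large subunit protein, was 6.28, 3.01 and 5.44 FPKM in control and 6.04, 9.14 and 4.09 FPKM in knockout E2C, and 26.2 and 35.6 FPKM in control and 7.21, 6.71 and 9.03 FPKM in knockout L2C. Its genotypes overlapped in E2C and were wide apart in L2C (difference of log2 differences -2.19 ± 0.36, limma adjusted p = 0.000196).

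Rpl14, another large subunit protein, was 10.6, 11.7 and 10.4 FPKM in control and 10.8, 8.65 and 17.8 FPKM in knockout E2C, and 34.0 and 48.0 FPKM in control and 12.5, 15.1 and 9.74 FPKM in knockout L2C. The pattern was that of Rpl7 (difference -1.76 ± 0.29, limma adjusted p = 0.00024). For Rps27 the difference was -2.12 ± 0.60 (limma adjusted p = 0.0164). Its knockout E2C libraries were 0.728, 0 and 0.532 FPKM beside the control values above, all near the floor. The limma adjusted p of Rps27 was 0.053 without control E2C replicate 3, 0.0502 without control L2C replicate 1 and 0.0507 without control L2C replicate 2, and the count of members was 11 without control L2C replicate 2, 9 without the filter on low values and 34 (32 lower) without stage weights. Whether the knockout difference changed between L1C and E2C, where the members called were higher and then lower, was not tested.

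**Figure D4:**
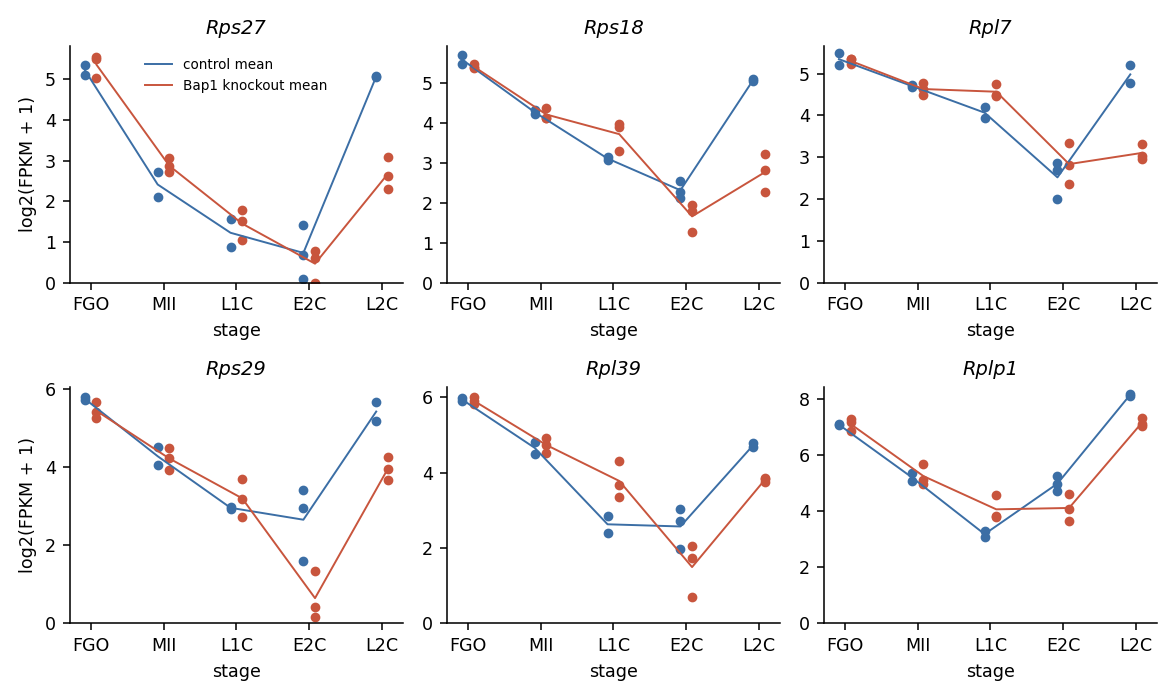
Levels of 6 ribosomal protein genes, log2(FPKM + 1), by stage in total RNA; points are libraries, lines join group means, blue is control and red is Bap1 knockout. The genotypes lie close together in FGO and MII, and in L2C the controls of Rps27, Rps18 and Rpl7 are above every knockout library.

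Rplp0, Rplp1 and Rplp2 form the stalk, and the values of Rplp1 are uncertain for its shared sequence. Rplp0 anchors it and was 110 and 90.8 FPKM in control FGO, 37.9 and 35.0 FPKM in L1C, 76.6, 77.4 and 77.7 FPKM in E2C, and 224 and 229.6 FPKM in L2C. All 3 stalk genes fell from control MII to L1C and rose both from L1C to E2C and from E2C to L2C. In the knockout, Rplp0 was higher in L1C (0.46 ± 0.12, limma adjusted p = 0.0109) and lower in E2C (-0.87 ± 0.20, limma adjusted p = 0.00694). In knockout L2C it was 198, 159 and 170.6 FPKM, below every control, with no call (-0.37 ± 0.19, limma adjusted p = 0.154). Rplp1 was lower in knockout L2C at 161, 130.1 and 137 FPKM (-1.0 ± 0.35, limma adjusted p = 0.0306), as was Rplp2 at 86.0, 81.5 and 82.7 FPKM against 139 and 129 FPKM (-0.68 ± 0.21, limma adjusted p = 0.0163).

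Rpl5 and Rpl11 join 5S ribosomal RNA in a particle that also restrains MDM2. Rpl11 was 38.9 and 34.4 FPKM in control and 13.3, 18.4 and 14.2 FPKM in knockout L2C, far apart (-1.22 ± 0.19, limma adjusted p = 4.91e-05). Its knockout difference in E2C was positive and not called (0.49 ± 0.20, limma adjusted p = 0.122), and the late minus early difference was -1.71 ± 0.28 (limma adjusted p = 0.000191). Rpl5 was 33.7 and 31.5 FPKM in control and 23.2, 24.4 and 19.9 FPKM in knockout L2C (-0.52 ± 0.19, limma adjusted p = 0.0435). Both were higher in knockout L1C, Rpl11 by 0.51 ± 0.12 (limma adjusted p = 0.00411) and Rpl5 by 0.40 ± 0.12 (limma adjusted p = 0.0233).

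Rps6, the small subunit protein phosphorylated by S6 kinase, was flat early on, at 45.3 and 45.0 FPKM in control FGO, 38.2 and 43.1 FPKM in MII and 41.6 and 45.6 FPKM in L1C. It fell to 15.4, 21.2 and 16.8 FPKM in E2C and rose to 70.2 and 61.4 FPKM in L2C, above its oocyte level. Knockout L2C libraries were 47.2, 35.8 and 46.5 FPKM, below both controls (-0.60 ± 0.18, limma adjusted p = 0.0136). Rps27a, made as a fusion with ubiquitin, was 71.1 and 60.6 FPKM in control FGO, 14.2 and 13.9 FPKM in MII, 6.67 and 7.39 FPKM in L1C and 39.2 and 39.7 FPKM in L2C. Its knockout difference was 0.53 ± 0.10 in L1C (limma adjusted p = 0.000551) and -0.71 ± 0.16 in L2C (limma adjusted p = 0.00148). Rps4x, the X-linked small subunit protein, was 34.7 and 45.9 FPKM in control and 22.1, 31.9 and 25.9 FPKM in knockout L2C (-0.58 ± 0.17, limma adjusted p = 0.0098).

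The paralogs ending in l are described beside the gene they resemble. Rps27l stood between 14.4 and 24.4 FPKM in every FGO, MII and L1C library, while Rps27 went from 31.6 FPKM or more in FGO to 2.45 FPKM or less in L1C. In control E2C Rps27l was 37.8, 44.2 and 51.6 FPKM, against at most 1.68 FPKM for Rps27. In L2C the controls of the pair were alike, at 36.6 and 35.7 FPKM for Rps27l and 32.2 and 32.6 FPKM for Rps27. In knockout L2C Rps27l was 58.7, 46.7 and 42.1 FPKM, above both controls with no call (0.42 ± 0.22, limma adjusted p = 0.154), and Rps27 was 7.55 FPKM or less. Rps27l shares 11.2% of its 50-base words with other genes and Rps27 25%, mostly with Rps27rt.

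Rpl10l stayed at 3.51 FPKM or less through E2C, when Rpl10 was between 12.2 and 69.0 FPKM, and approached it in control L2C, at 56.0 and 68.2 FPKM beside 72.4 and 69.7 FPKM. In knockout L2C Rpl10l was 38.9, 34.5 and 33.3 FPKM (-0.78 ± 0.36, limma adjusted p = 0.106) and Rpl10 was 45.1, 41.2 and 41.4 FPKM (-0.73 ± 0.22, limma adjusted p = 0.0142). Rpl10l is a single-exon model of 1023 bases on chromosome 12, and 7.6% of its words occur elsewhere. Rpl39l, a testis-enriched paralog, was between 1.39 and 12.4 FPKM in all total RNA libraries. Its only call there was a fall from MII to L1C in the knockout (-0.71 on the log2 scale, limma adjusted p = 0.0181), and in controls the same step gave -0.67 (limma adjusted p = 0.0511), while Rpl39 fell by 2.03 on the log2 scale. Rps4l, listed as a transcribed pseudogene, was 20.7 and 18.0 FPKM in control and 8.38, 7.88 and 7.5 FPKM in knockout L2C (-1.19 ± 0.31, limma adjusted p = 0.00476).

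Rpl3l, known from heart and skeletal muscle, first rose above 0.1 FPKM in L2C, at 0.560 and 0.982 FPKM in control and 1.95, 0.585 and 1.01 FPKM in knockout, where Rpl3 was 20.7 and 23.2 FPKM in control and 11.3, 8.15 and 10.4 FPKM in knockout. Rpl6l was between 0.371 and 4.45 FPKM in total RNA, below Rpl6 in every library, and Rpl32l was between 0.578 and 19.6 FPKM, below Rpl32 in every library. The highest Rpl32l value was in knockout FGO replicate 1, whose ribosomal protein pseudogenes summed to 657 FPKM against 261 to 317 FPKM in the other FGO libraries.

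**Figure D5:**
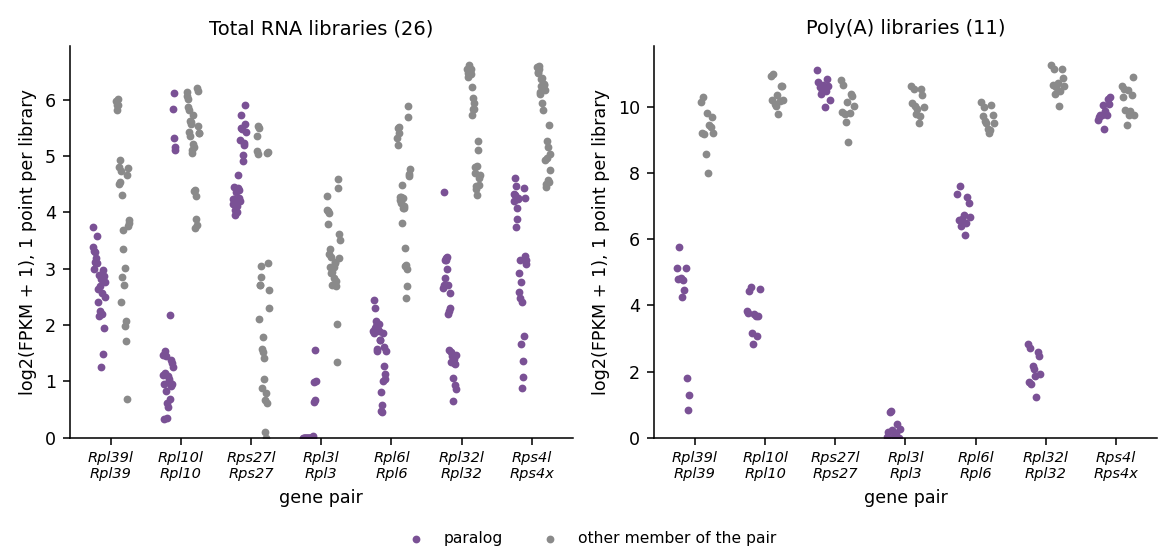
Levels of the 7 members whose symbol ends in l (purple) and of the related member named below each (grey; Rps4x for Rps4l), log2(FPKM + 1), 1 point per library, in total RNA (left) and poly(A) RNA (right). Rps27l stands above Rps27 in many total RNA libraries, and in poly(A) RNA 3 Rpl39l points, the EXE libraries, lie below the rest.

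Other genes of the ribosome pathway were counted in the same comparisons. Over all genes tested, 29.2% rose and 22.5% fell from control E2C to L2C, 17% were higher and 17.2% lower in knockout L2C, and 7.6% were higher in knockout L1C. Of the 8 tested ribosomal proteins that the symbol rule misses, 7 rose from control E2C to L2C and 6 were lower in knockout L2C, most of all Rack1, a scaffold on the small subunit (-1.47). Of 42 genes of ribosome assembly and RNA polymerase I, 33 rose and 3 fell from control E2C to L2C (median 1.77), and 32 were lower and 3 higher in knockout L2C (median -0.86), with Heatr1, a pre-ribosomal RNA processing factor, lowest at -2.19. In knockout L1C, where 39 members were higher, 4 of the 42 assembly genes were higher and none lower (median 0.05), a share near that of all genes. From FGO to MII in controls none of the 42 was called (median -0.02).

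Of 15 other mRNAs with a known TOP start, 4 were higher and 4 lower in knockout L2C (median -0.10), with Eef1a1, an elongation factor, at 0.83 and Eif3h, an initiation factor subunit, at -1.21. In knockout L1C 2 of the 15 were higher and none lower (median 0.05). Of 77 tested mitochondrial ribosomal proteins, 9 were higher in knockout L1C (median 0.13), and 7 were higher and 17 lower in knockout L2C (median -0.23). Over all genes, 7.6% were higher in L1C and 17% higher and 17.2% lower in L2C. From control L1C to E2C 52 of the 77 fell and 2 rose (median -1.0), where 29.1% of all genes fell. Of 13 tested regulators of TOP mRNAs and of ribosomal protein gene transcription, 3 were lower and 1 higher in knockout L2C, with Larp1 lowest at -1.41, and Larp1 had risen most from control E2C to L2C (2.89). Of 77 tested ribosomal protein pseudogenes, 7 were lower and 1 higher in knockout L2C (median -0.18).

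At embryonic day 6.5 no member was called between genotypes in EPI or VE, where limma called 0% and 0.00748% of 13376 genes. These fits, with 2 libraries a group, called next to no gene and did not recover changes planted in simulated data, so the lack of calls says nothing of whether members differed. At an unadjusted p under 0.05, 306 genes were past the limit in EPI and 170 in VE, none of them a member. The member share was 20.9% and 13.8% in control and 23.0% and 12.4% in knockout EPI, so that libraries numbered 1 were high and libraries numbered 2 low in both genotypes. In VE it was 11.4% and 14.6% in control and 9.38% and 13.0% in knockout, overlapping. In EXE it was 18.1% in the control library and 16.6% and 13.0% in the knockout libraries, and no genotype test was run there, the control being 1 library. The member median was -0.05 in EPI and -0.32 in VE, beside 0.06 and 0.05 for all genes. In knockout VE 77 of 81 members had a lower mean, none called, whereas 56.7% of all genes had a higher one.

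Knockout VE replicate 1, which had the lowest member share, stood apart in markers of other cells. Its maternal decidua markers summed to 24.4 FPKM, against 1.37 to 3.59 FPKM in the other VE libraries, with 2 of 3 at 1 FPKM or more in knockout VE and none at 0. Its blood markers summed to 5.99 FPKM, against at most 0.0493 FPKM, with 1 of 3 at 1 FPKM or more and Hba-x at 0. Its extraembryonic ectoderm markers (2 of 4 at 1 FPKM or more, none at 0) summed to 26.8 FPKM, against 10.96 to 18.4 FPKM. Without this library the member median in VE was -0.0044 and 41 of 81 members had a lower mean. That fit sets knockout replicate 2 alone against both controls, and VE libraries of the same number deviated together (r = 0.73 over the members). Within each number the knockout share was the lower, at 9.38% beside 11.4% and 13.0% beside 14.6%. Leaving this library out therefore cannot show whether the lean of the members rested on it. Without each of the other VE libraries the median was between -0.61 and -0.15. The part of these cells in the result was not tested.

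Between lineages, averaged over both genotypes, 3 of 81 members were higher in EPI than in VE and none lower, where 21.6% of 13914 genes were higher and 16.8% lower. Nearly all members leaned that way, 79 of 81 with a median of 0.48, beside 0.20 for all genes. In only 7 of the 81 was every EPI library above every VE library, against 22% of all genes. The member shares overlapped, at 12.4% to 23.0% in EPI and 9.38% to 14.6% in VE. Rpl21 was 729 and 450.3 FPKM in control and 777 and 423 FPKM in knockout EPI, against 282 and 375 FPKM in control and 245 and 367 FPKM in knockout VE (0.87 ± 0.28, limma adjusted p = 0.0332). Rplp0 was 2635 and 2329 FPKM in control and 2342 and 2075 FPKM in knockout EPI, against 1668, 1269, 1414 and 1362 FPKM in VE (0.72 ± 0.20, limma adjusted p = 0.0181). Rpl10l was 13.3, 12.5, 20.7 and 22.5 FPKM in EPI and 7.99, 6.19, 12.3 and 11.8 FPKM in VE (0.79 ± 0.24, limma adjusted p = 0.027). Every EPI library was above every VE library for these 3 genes.

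The EPI against VE count was 0 without control EPI replicate 1, 15 without knockout EPI replicate 2 and 1 without knockout VE replicate 1, so the number of members called rests on single libraries. Each of the 3 calls was lost without control EPI replicate 1 (limma adjusted p = 0.117 for Rpl21, 0.0691 for Rplp0 and 0.0699 for Rpl10l), and without some other single libraries. The count was 10 with TPM scaling and 0 in the knockout libraries alone or with a replicate block. Median centring gave 2 members higher, beside 18.8% of all genes higher and 18.2% lower.

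Rpl39l set EXE apart. It was 33.9 and 26.9 FPKM in control and 53.5 and 27.6 FPKM in knockout EPI, 18.1, 26, 21 and 34.0 FPKM in VE, and 2.47 FPKM in control and 0.804 and 1.47 FPKM in knockout EXE. Every EXE library was far below every EPI and VE library. It was the only member called lower in EXE than in EPI, 1 of 81, where 10.4% of all genes were lower and 9.13% higher (-3.70 ± 0.33, limma adjusted p = 6.59e-05). Against VE it was again the only member called lower (-3.21 ± 0.33, limma adjusted p = 9e-05), and Rplp0 was the only member called higher, where 11.3% of all genes were lower and 11.3% higher. Members leaned toward EXE, 80 of 81 having a higher mean there than in VE, with a median of 0.46 beside 0.16 for all genes. In only 9 of the 81 was every EXE library above every VE library, against 23.6% of all genes. Rpl39, the related member of Rpl39l, was 667 FPKM in control and 829 and 597 FPKM in knockout EXE, within its range in EPI and VE. It was not called between EXE and EPI (-0.29 ± 0.48, limma adjusted p = 0.778). Rpl39l shares 0% of its 50-base words with other genes.

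Rplp0 was 2620 FPKM in control and 2239.7 and 2272 FPKM in knockout EXE, above every VE library (0.77 ± 0.22, limma adjusted p = 0.0335). This call was lost without control VE replicate 2 (limma adjusted p = 0.0789), knockout VE replicate 1 (0.0754) or 2 (0.0874), or knockout EXE replicate 1 (0.108) or 2 (0.108). Median centring, the knockout libraries alone and a replicate block also left no member called higher in EXE than in VE. The order of the members by level was nearly the same in the 3 control lineages, with a Spearman rho over 82 genes of 0.97 between EPI and VE and between EPI and EXE.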

How the data were processed

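Total RNA (26 libraries) and poly(A) RNA (11 libraries) were sequenced, and the authors deposited a table of FPKM per gene for each (called rpkm in the file headers), with 55401 genes. Per the submitters' processing notes the build was mm10 and the tools were Trim Galore 0.6.6, STAR 2.7.9 and StringTie 2.1.7, with no roles given. The annotation, the scaling and any filter are not given in the sources used here. Per the labels' protocols, total RNA libraries used the SMART-Seq Stranded kit and poly(A) libraries SMART-Seq mRNA with Nextera XT, and embryos were cultured in KSOM. In control EPI replicate 1 the deposited table lists 1 gene just below 0, which was set to 0. FPKM were not whole multiples of a read, so depth is unknown, and no count test was run.

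Values were compared as log2(FPKM + 1) with limma 3.58.1 in R 4.3.3, keeping genes at 1 FPKM or more in at least 2 libraries. Total RNA was fitted in 1 model of all 26 libraries with a weight for each stage (limma's array weights by stage) and a mean-variance trend. The EPI and VE genotype tests used 8 libraries and the lineage tests 11. Benjamini-Hochberg adjustment ran over all genes tested, and genes under 0.05 were called. The fits were tested on simulated data, drawn with a spread for each stage or lineage. Those of total RNA recovered most planted changes, fewest in E2C, and those of EPI and VE recovered none. With stage weights, false calls were 9 of 173 in FGO, 13 of 184 in MII and 9 of 169 in L1C. They were 14 of 131 in E2C and 13 of 156 in L2C. Without weights they were 3 of 162, 0 of 147 and 0 of 145 in FGO, MII and L1C. In E2C and L2C they were then 132 of 281 and 42 of 195. Members were annotated from GENCODE M21 by gene ID, all 82 with the same version, and promoters came from RefSeq. Figures were drawn with matplotlib 3.10.9 in Python 3.11.15.

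The members and the comparison lists were chosen with earlier results of these data known. Named were, for each contrast, up to 3 members in each direction with the largest change among those called, without overlap between groups, whose higher group averaged 5 FPKM or more. Named too were the 3 highest and 3 lowest members of each library type, the paralogs with their related members, and the stalk, 5S, Rps6, Rps27a and Rps4x genes. Some genes that this rule selects are not reported here. Rpl10l in MII, members called in E2C, those not called from E2C to L2C and those higher in knockout L2C were named after their values were seen. Alternatives were another pseudocount, filter, scaling, centring and weighting, fewer samples, a replicate block and leaving out each library.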

Additional observations from a re-analysis of the deposited data

Results flagged for a closer look

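The knockout difference of 18 ribosomal protein genes differed between late and early 2-cell embryos in limma's interaction term, all 18 being more negative in the late embryo, where 9.37% of all genes moved that way. The difference of log2 differences was -2.19 for Rpl7, -2.12 for Rps27 and -1.76 for Rpl14. Rpl7 and Rpl14 kept their call under every alternative run, and Rps27 lost it under 6.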

How the results depend on the processing

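Of 198 recomputed counts of members called, 163 stayed within 1.5 times the reported count and 35 moved. These include the EPI and VE genotype tests, which recovered no planted change. There a count of 0 beside a reported 0 passes, and says nothing of how firm a result is. Of 525 recomputed values of named members, 459 kept call and direction, 66 lost the call and 0 reversed. Median centring gave 7 members in FGO and 4 in MII (2 reported in each), and 1 for EXE against VE (2 reported). Without stage weights the counts were 1 in FGO, 0 in MII, 17 in L1C, 32 in E2C, 29 from FGO to MII and 34 for the late against early difference. Without the filter on low values they were 7 in E2C, 23 in L2C and 9 for the late against early difference. Fitting only the stages compared gave 1 in FGO. TPM scaling without the top gene model gave 10 for EPI against VE. Knockout libraries alone gave 0 for EPI against VE and 1 for EXE against VE. The cause was not tested in any of these.

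Leaving out 1 library gave 1 to 3 members in FGO, 2 to 4 in MII, 18 to 42 in L1C, 5 to 13 in E2C, 38 to 55 in L2C, 36 to 42 from FGO to MII, 54 to 57 from MII to L1C, 45 to 52 from L1C to E2C, 71 to 73 from E2C to L2C, 11 to 19 for the late against early difference, 0 to 15 for EPI against VE, 1 to 1 for EXE against EPI and 1 to 2 for EXE against VE. Libraries of the same number share only that number. With a replicate block, 4 members were called in MII, 0 for EPI against VE and 1 for EXE against VE. Over all genes, same-numbered control and knockout libraries had correlated deviations in EPI (r = 0.59) and VE (r = 0.42). Across lineages r was -0.30 in control and -0.38 in knockout EPI and VE, -0.36 in knockout VE and EXE and 0.51 in knockout EPI and EXE. Over the members alone r was 0.74 in EPI and 0.73 in VE. Across lineages these were, in the same order, -0.52, -0.37, -0.29 and 0.60. With 2 libraries a group each r is a single comparison. Depth is unknown, so no limit from counting can be given.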
